A study of Mus musculus with 3 samples.

Results

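The enzymes that turn acetyl-CoA into cholesterol were followed through 8 of their genes: Hmgcs1, Idi1, Fdps, Fdft1, Sqle, Lss, Cyp51 and Msmo1. The genes were chosen by name as rows of the deposited expression table, which lists 16178 genes, and all 8 were found in it, Msmo1 under an older symbol. Their transcripts were read in 149 single cells by cluster and plate. Oligodendrocyte-like cells carried 1126 ± 143 CPM of the 8 genes (SD, n = 3 plates), where CPM scales the transcripts of each sum of cells to the same total. Cells like astrocytes or quiescent stem cells carried 2013 ± 118 CPM (SD, n = 2 plates), most of it Msmo1, and microglia-like cells carried 161 ± 32.7 CPM (SD, n = 3 plates).

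Cholesterol synthesis begins with the mevalonate steps, passes through short isoprenoids to squalene, closes squalene into the sterol lanosterol and then trims lanosterol to cholesterol. The brain makes its own cholesterol because lipoproteins of the blood do not cross the blood-brain barrier: oligodendrocytes build it into myelin, and astrocytes pass it to neurons on apolipoprotein E. The transcription factor SREBP2, released from the endoplasmic reticulum when sterols run low, switches on most genes of the pathway by binding sterol response elements.

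The cells came from the subventricular zone, where adult neural stem cells live, of male C57BL/6J mice from the supplier Envigo. The labels give no treatment or age, and the 3 samples form 1 group in which each sample is 1 plate. Every comparison here is thus between groups of cells and not between samples. Means and pooled ratios also set cells of different plates against each other, since the plates held the clusters unevenly. Per the labels' protocols, 8 mice went into an experiment, while the series design gives 8 mice over 3 days, so how many animals stand behind a plate is not settled. Per the same protocols, cells were dissociated with trypsin and held on a magnetic column by GLAST, the glutamate transporter of astrocytes and stem cells. Myelin was removed in 2 of the 3 experiments, and the labels do not say in which. Wells were sequenced by SORT-seq, which counts the 3′ ends of transcripts by molecular identifiers.

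The labels call all cells neural stem cells, but most carried markers of other glia. Clusters 0 and 2 (77 cells) were oligodendrocyte-like, with the highest level of 10 of 10 oligodendrocyte markers, and of 6 precursor markers 4 were highest there. Those 4 were Olig1, Olig2 and Sox10, which mature oligodendrocytes express too, at 1451, 483 and 1844 CPM, and Gpr17 at 14.9 CPM. Cspg4 was at 3.73 CPM in clusters 0 and 2 and 6.36 CPM in cluster 3, and Pdgfra, the defining gene of precursors, was at 0 in every cluster. Cluster 1 (36 cells) was microglia-like, cluster 3 (30 cells) was like astrocytes or quiescent stem cells, and cluster 4 (6 cells) was like dividing cells, each highest for 8 of 8 of its markers. The plates held 43, 45 and 61 cells with 297573 to 478504 transcripts, and cells ranged from 1208 to 37442. Median transcripts per cell were 9012 in clusters 0 and 2, 3455 in cluster 1, 4192 in cluster 3 and 17377 in cluster 4. Clusters were spread unevenly: plates 1, 2 and 3 held 4, 25 and 48 cells of clusters 0 and 2, and 25, 1 and 4 cells of cluster 3. The plates reuse well positions, so 50 of 86 well names, each tied to a cell barcode, stand on more than 1 plate under separate library names.

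The 8 genes together set the clusters apart. In clusters 0 and 2 they summed to 978, 1263 and 1138 CPM on plates 1, 2 and 3. In cluster 3 they summed to 2097 CPM on plate 1 and 1929.8 CPM on plate 3, and the lone cluster 3 cell of plate 2 had 3200.1 CPM. In cluster 1 they summed to 168, 190.1 and 126 CPM. The plate values of these groups did not overlap, with cluster 3 highest and cluster 1 lowest on every plate. Over all cells of a group, clusters 0 and 2 had 950 transcripts of the 8 genes, cluster 3 had 330 and cluster 1 had 22. Msmo1 gave 242 of those 950 and 182 of those 330. Without Msmo1 the sum was higher in cluster 3 than in clusters 0 and 2 on plate 1 and lower on plate 3. Pooled over plates, the level of all 8 genes in clusters 0 and 2 was 6.83 times that in cluster 1 (exact 95% interval 4.48 to 10.9). It was 0.562 times that in cluster 3 (0.496 to 0.639), and the level in cluster 3 was 12.1 times that in cluster 1 (7.88 to 19.6). These intervals, like all intervals on pooled transcripts below, cover counting error only.

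**Figure D1:**
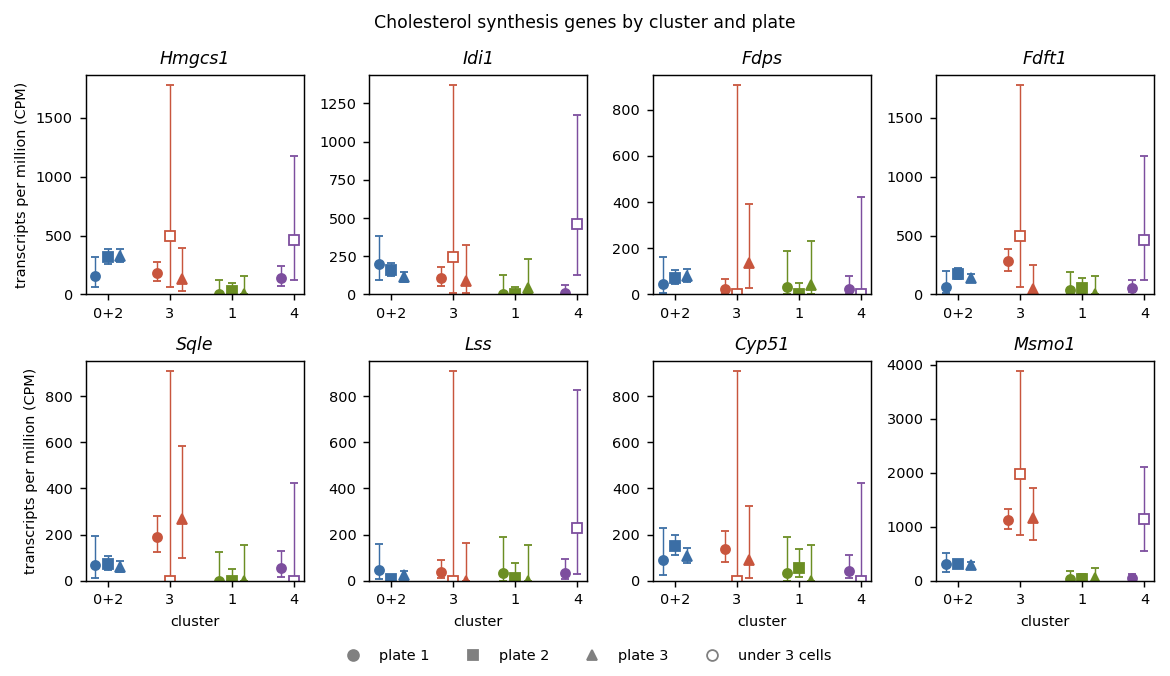
Level of each of the 8 genes (CPM, linear axis) in clusters 0 and 2, 3, 1 and 4; a symbol is the sum of all cells of a group on 1 plate, bars are exact 95% Poisson intervals of the count, and open symbols are sums of under 3 cells. Msmo1 reached 1133 and 1168 CPM in cluster 3 against 296 to 311 CPM in clusters 0 and 2, and Sqle was at 0 in cluster 1 on all 3 plates.

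Oligodendrocyte RNA in other cells was gauged with Mbp, which encodes myelin basic protein. Mbp stood at 7759 CPM in clusters 0 and 2, at 409 CPM in cluster 1 and at 108 CPM in cluster 3. Cluster 1 thus had 5.27% of the oligodendrocyte level of Mbp and 14.7% of that of the 8 genes. Mbp was seen in 18 of 36 cells of cluster 1, at a median of 3455 transcripts per cell, and its 10 oligodendrocyte markers summed to between 674 and 5371 CPM by plate against 85857 to 95627 CPM in clusters 0 and 2. The part of such RNA in the cluster 1 values was not tested. In cluster 3 Mbp was at 1.39% of the oligodendrocyte level, while the 8 genes were at 178%.

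Promoter sequence was at hand for 5 of the 8 genes, and the stretches of Hmgcs1, Lss and Cyp51 are shown to place the motifs searched in them. They are RefSeq sequence of the build GRCm38.p6, read 5′ to 3′ on the strand of the gene and limited to the bases before the gene's start that lie outside any GENCODE gene. Hmgcs1 is given at chr13:119690101-119690350 (plus strand, 250 bases), Lss at chr10:76531355-76531587 (plus strand, 233 bases) and Cyp51 at chr5:4104747-4104947 (minus strand, 201 bases). Capitals mark, on either strand, the sterol response element TCACNCCAC, the CCAAT box of NF-Y and the GC box GGGCGG.
Hmgcs1: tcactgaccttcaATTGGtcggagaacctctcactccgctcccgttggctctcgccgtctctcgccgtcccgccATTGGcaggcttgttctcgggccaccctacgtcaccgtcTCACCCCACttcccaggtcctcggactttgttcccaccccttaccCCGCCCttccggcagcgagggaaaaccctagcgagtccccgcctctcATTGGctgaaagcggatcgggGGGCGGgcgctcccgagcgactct
Lss: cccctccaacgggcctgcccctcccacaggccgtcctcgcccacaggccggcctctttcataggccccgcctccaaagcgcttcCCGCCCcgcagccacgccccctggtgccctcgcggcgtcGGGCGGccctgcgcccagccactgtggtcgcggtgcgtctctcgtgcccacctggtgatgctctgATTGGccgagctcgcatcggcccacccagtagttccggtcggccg
Cyp51: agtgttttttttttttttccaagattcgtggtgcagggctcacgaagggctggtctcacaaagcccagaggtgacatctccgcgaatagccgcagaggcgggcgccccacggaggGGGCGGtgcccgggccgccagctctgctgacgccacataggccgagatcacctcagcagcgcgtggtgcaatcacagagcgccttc
In the 250 bases before the RefSeq start, searched on both strands, TCACNCCAC was found in 1 of the 5 genes, Hmgcs1, at -137 to -129, and in 1.05% of all 32851 mouse promoters of that length. CCAAT was found in 5 of 5 genes and in 33.8% of all promoters, and GGGCGG in 5 of 5 and in 32.7%. The CCAAT match of Cyp51, at -29 to -25, lies outside the stretch shown. Matches of different motifs did not overlap in the 5 genes. A match describes letters and shows no binding.

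Hmgcs1 (chr13:119690379-119708260, plus strand, GRCm38) encodes the synthase that makes HMG-CoA in the mevalonate steps. It stood at 156, 321 and 329 CPM in clusters 0 and 2 on plates 1, 2 and 3. In cluster 3 it stood at 184 CPM on plate 1 and 135 CPM on plate 3, and in cluster 1 at 0, 27.2 and 0 CPM. Clusters 0 and 2 lay above cluster 1 on every plate, with 254 transcripts against 2, and overlapped with cluster 3. The lone cluster 3 cell of plate 2 had 492 CPM of Hmgcs1, on 2 transcripts. Hmgcs1 exceeded its cluster 1 level by a log2 difference of 4.56 (SE 0.92, edgeR adjusted p = 7.2e-06), and the pooled ratio was 20.1 (5.50 to 167). Against cluster 3 the log2 difference was 0.56 (SE 0.74, edgeR adjusted p = 0.727), and it was -0.78 without plate 3. Hmgcs1 was seen in 64 of 77 cells of clusters 0 and 2, 17 of 30 of cluster 3 and 2 of 36 of cluster 1. After each cell was thinned to 2000 identifiers these shares were 56.8%, 40.0% and 3.23%, with 3 cells of clusters 0 and 2 and 5 of cluster 1 left out as too shallow.

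Idi1 (chr13:8885501-8892451, plus strand) and Fdps (chr3:89093588-89101959, minus strand) encode the isomerase and the synthase that build farnesyl diphosphate. Idi1 stood at 200.1, 159 and 111 CPM in clusters 0 and 2, at 107 and 89.7 CPM in cluster 3 on plates 1 and 3, and at 0, 0 and 41.9 CPM in cluster 1, where it rests on 1 transcript. All 3 plates of clusters 0 and 2 lay above all plates of cluster 1 and, by a small margin, above plates 1 and 3 of cluster 3. The lone cluster 3 cell of plate 2 had 246 CPM of Idi1, on 1 transcript, above clusters 0 and 2 of that plate. Against cluster 1 the log2 difference was 4.36 (SE 1.23, edgeR adjusted p = 0.0023) and the pooled ratio 17.2 (3.03 to 687); without plate 2 Idi1 did not reach the low-count filter. Against cluster 3 the log2 difference was 0.85 (SE 0.97, edgeR adjusted p = 0.664). Idi1 lies beside Idi2, a close copy, and how the authors' counting divided reads between them is not known, so its values are uncertain. Fdps stood at 44.4, 70.3 and 78.7 CPM in clusters 0 and 2, at 22.9 and 135 CPM in cluster 3 and at 33.7, 0 and 41.9 CPM in cluster 1. The ranges of clusters 0 and 2 and cluster 3 overlapped. Fdps had too few transcripts for the low-count filter in these comparisons and has no test: its pooled ratio of clusters 0 and 2 to cluster 1 was 4.66 (1.24 to 39.4, with 2 transcripts in cluster 1) and to cluster 3 was 1.92 (0.832 to 5.44).

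Fdft1 (chr14:63145150-63179578, minus strand), squalene synthase, is the enzyme of the first step committed to sterols. It stood at 66.7, 174 and 136.5 CPM in clusters 0 and 2 and at 33.7, 54.3 and 0 CPM in cluster 1. In cluster 3 it stood at 283 CPM on plate 1 and at 44.8 CPM on plate 3, the latter 1 transcript. Clusters 0 and 2 lay above cluster 1, while the cluster 3 values lay on both sides of them. Its log2 difference from cluster 1 was 2.42 (SE 0.90, edgeR adjusted p = 0.0272), a call lost in DESeq2 (adjusted p = 0.147), with no filter on low counts (0.0629), with sums of at least 1 cell (0.0600), without plate 2 (0.151) and without plate 3 (0.327). Against cluster 3 the log2 difference was -0.45 (SE 0.89, edgeR adjusted p = 0.832), and it was 2.00 without plate 1.

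Sqle (chr15:59315077-59331192, plus strand) encodes squalene epoxidase, which oxidises squalene before the sterol rings are closed. It stood at 66.7, 73.4 and 57.8 CPM in clusters 0 and 2, at 191 and 269 CPM in cluster 3 on plates 1 and 3, and at 0 CPM in cluster 1 on all 3 plates. On plates 1 and 3 cluster 3 was highest, clusters 0 and 2 followed and cluster 1 was lowest, while the lone cluster 3 cell of plate 2 had no Sqle. Sqle was seen in 0 of 36 cells of cluster 1, in 28 of 77 of clusters 0 and 2 and in 14 of 30 of cluster 3. The 0 of 36 allows up to 9.74% of cells with an identifier of Sqle at this depth (exact 95% binomial interval) and does not limit the share of cells that express it. Of cells thinned to 2000 identifiers it was seen in 0 of 31 in cluster 1, 5 of 74 in clusters 0 and 2 and 9 of 30 in cluster 3. Against a floor of 3 transcripts over cluster 1, Sqle was at least 2.74-fold higher in clusters 0 and 2 and at least 8.36-fold higher in cluster 3. This floor, also used below for genes at 0 in a group, leaves out the counting error of the other group. The exact 95% lower limits of the pooled ratios were 2.15 and 6.41. The test of clusters 0 and 2 against cluster 1 passed (edgeR adjusted p = 0.0103), and did not without plate 2 (0.166) or without plate 3 (0.0914); with sums of at least 1 cell Sqle was not tested. Against cluster 3 the log2 difference was -1.62 (SE 0.99, edgeR adjusted p = 0.312), short of the threshold. The pooled ratio was 0.328 (0.206 to 0.529), and the sums of at least 3 cells did not overlap. Lss (chr10:76531588-76557138, plus strand), which closes the sterol rings, gave 15, 5 and 2 transcripts in clusters 0 and 2, cluster 3 and cluster 1. It did not pass the filter, and its pooled ratio of clusters 0 and 2 to cluster 1, 1.19 (0.276 to 10.7), shows no difference that this depth could detect.

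Cyp51 (chr5:4081145-4104746, minus strand), the lanosterol demethylase, stood at 88.9, 149.8 and 106 CPM in clusters 0 and 2. It stood at 138 and 89.7 CPM in cluster 3 on plates 1 and 3 and at 33.7, 54.3 and 0 CPM in cluster 1. Clusters 0 and 2 overlapped with cluster 3 and lay above cluster 1. The log2 difference from cluster 1 was 2.19 (SE 0.97, edgeR adjusted p = 0.0721), short of the threshold, and it passed without the plate block (2.01, edgeR adjusted p = 0.0269). From cluster 3 it was -0.07 (SE 0.93, edgeR adjusted p = 0.995), and it turned to 0.27 without the plate block and 0.65 without plate 1.

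Msmo1 (chr8:64718139-64733792, minus strand) encodes the sterol oxidase that removes methyl groups at the fourth carbon after Cyp51 has acted. In clusters 0 and 2 it stood at 311, 306 and 296 CPM on plates 1, 2 and 3. In cluster 3 it stood at 1133 CPM on plate 1 and 1168 CPM on plate 3, and the lone cluster 3 cell of plate 2 had 1969.8 CPM. In cluster 1 it stood at 33.7, 40.7 and 41.9 CPM, on 5 transcripts in all. Cluster 3 lay above clusters 0 and 2, and these above cluster 1, with no overlap on any plate. Clusters 0 and 2 had less Msmo1 than cluster 3, with a log2 difference of -1.68 (SE 0.55, edgeR adjusted p = 0.0156) and a pooled ratio of 0.260 (0.213 to 0.317). The difference kept its sign in every alternative run, and its call was lost with no filter on low counts (log2 -1.66, adjusted p = 0.278) and without plate 1 (-1.46, 0.128), which leaves cluster 3 with 1 sum of 4 cells. Against cluster 1 Msmo1 was higher in clusters 0 and 2 by 3.29 (SE 0.69, edgeR adjusted p = 2.2e-05). Msmo1 was seen in 27 of 30 cells of cluster 3, 55 of 77 of clusters 0 and 2 and 5 of 36 of cluster 1, and in 70.0%, 39.2% and 9.68% of cells thinned to 2000 identifiers. The median cell had 855 CPM in cluster 3 and 224 CPM in clusters 0 and 2, and the richest cell of cluster 3 gave 19.3% of its Msmo1.

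**Figure D2:**
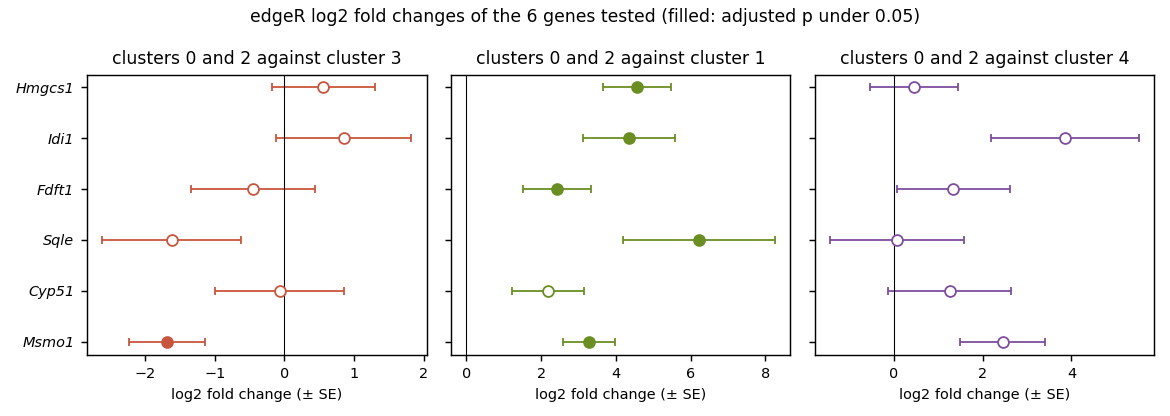
Log2 fold change of clusters 0 and 2 against cluster 3, cluster 1 and cluster 4 for the 6 genes that passed the filter on low counts; bars are 1 SE from edgeR and filled symbols passed an adjusted p of 0.05. Msmo1 alone passed against cluster 3 (-1.68), 5 of 6 passed against cluster 1 and 0 of 6 against cluster 4.

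Counted over the 8 genes, 6 passed the filter on low counts in the 3 comparisons of clusters 0 and 2. A gene can pass this filter through the groups where it is high, and the 6 had only 0 to 5 transcripts each in cluster 1. Fdps and Lss did not pass and are in neither the counts nor the medians of these comparisons. Their pooled ratios of clusters 0 and 2 to cluster 1 were 4.66 and 1.19. Against cluster 1, 5 of the 6 were higher in clusters 0 and 2 and 0 lower, where 16.8% of all 4080 genes tested were called higher and 30.5% in either direction; their median log2 difference was 3.82, or 2.86 with Sqle set at its bound, against 0.15 over all genes. Without plate 2 the 5 became 2, without plate 3 they became 3, and with sums of at least 1 cell 3. Against cluster 3, 0 of the 6 were higher and 1 lower, where 9.02% of all genes were called higher and 7.87% lower, and the median was -0.26 against 0.10 over all genes. With RLE size factors in place of TMM the median over all genes moved to -0.01 against cluster 1 and to -0.03 against cluster 3, and neither of the member counts changed. The clusters were drawn by the authors from the same expression values, so these p-values are no independent evidence of a difference between cell types.

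Against the dividing-like cluster 4 the comparison rests on 1 sum of 5 cells from plate 1, which has no spread of its own and is assumed to vary like the other groups. There the 8 genes summed to 413 CPM, with single cells between 154 and 771 CPM, and the lone cluster 4 cell of plate 2 had 2752 CPM, outside that range, with 1147 CPM of Msmo1. On plate 1, Msmo1 stood at 54.3 CPM and Idi1 at 10.9 CPM in cluster 4, below every plate of clusters 0 and 2, while Hmgcs1 stood at 141 CPM against 156 CPM in clusters 0 and 2 of that plate. Of the 6 genes tested 0 passed in edgeR (2 at an unadjusted p under 0.05), where 7.01% of all genes were higher in clusters 0 and 2 and 6.32% lower, and their median was 1.30 against -0.12 over all genes. Msmo1 was nearest, at 2.45 (SE 0.95, edgeR adjusted p = 0.0657). It passed with RLE size factors (adjusted p = 0.0215), in DESeq2 (0.0442), without the plate block (0.0053) and without plate 2 (0.0415). With sums of at least 1 cell, which bring in the cluster 4 cell of plate 2, its log2 difference was 0.68 (adjusted p = 0.637). Idi1, at 3.85 (SE 1.67, edgeR adjusted p = 0.107), passed without the plate block (0.0125) and was at 1.42 (0.367) with sums of at least 1 cell.

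The make-up of the transcripts differed between groups as well as their sum. Msmo1 gave 54.0% of the transcripts of the 8 genes in cluster 3 on plate 1 and 60.5% on plate 3, against 31.8%, 24.2% and 26.0% in clusters 0 and 2. Hmgcs1 gave 8.76% and 6.98% in cluster 3 and 15.9%, 25.4% and 28.9% in clusters 0 and 2. For both genes the plates of the groups did not overlap. On plate 1 the exact 95% binomial intervals of Hmgcs1 did, at 5.69 to 12.8% in cluster 3 and 6.64 to 30.1% in clusters 0 and 2. The shares of a group are tied, so the large share of Msmo1 in cluster 3 lowers those of the other genes there. As a level, Hmgcs1 on plate 1 was at 184 CPM in cluster 3 and 156 CPM in clusters 0 and 2. Pooled, the share of Msmo1 was 55.2% in cluster 3 (exact 95% binomial interval 49.6 to 60.6%) and 25.5% in clusters 0 and 2 (22.7 to 28.4%), and the share of Hmgcs1 was 8.79% (5.96 to 12.4%) and 26.7% (23.9 to 29.7%). Idi1 gave 5.15% (3.03 to 8.12%) and 11.5% (9.52 to 13.7%) and Sqle 9.39% (6.47 to 13.1%) and 5.47% (4.11 to 7.12%). Fdft1 went opposite ways by plate, with 13.5% in cluster 3 against 6.82% in clusters 0 and 2 on plate 1 and 2.33% against 11.99% on plate 3. Molecular identifiers are counted once per transcript end, so gene length does not enter these shares.

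**Figure D3:**
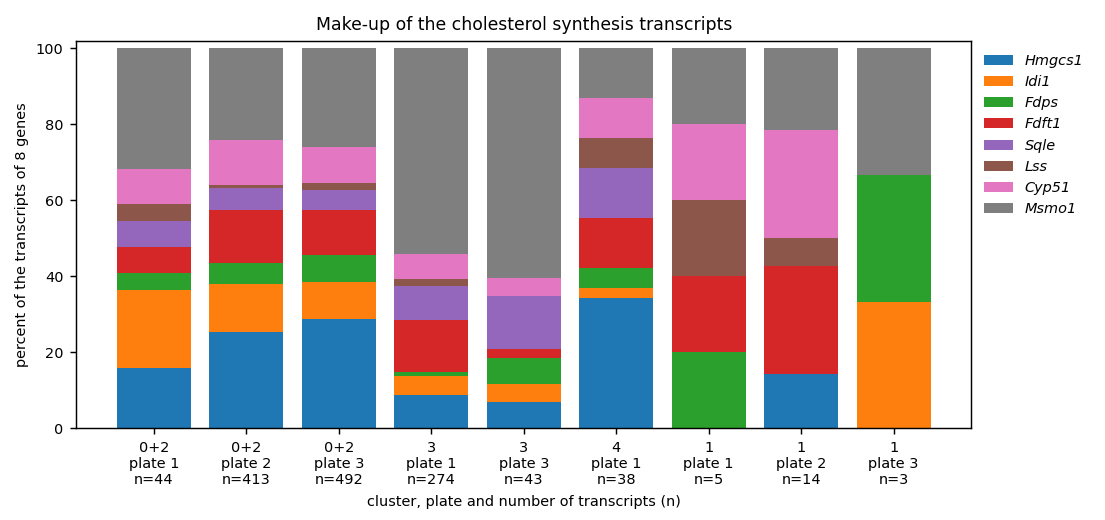
Percent of the transcripts of the 8 genes that each gene gave, per group and plate, with the number of transcripts (n) under each bar. Msmo1 took 54.0% and 60.5% in cluster 3 and between 24.2% and 31.8% in clusters 0 and 2; the bars of cluster 1 rest on 3 to 14 transcripts.

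Single cells showed the same order with wide ranges. The summed share of the 8 genes had a median of 1935 CPM over the 30 cells of cluster 3 (lowest 0, highest 4739), 999.7 CPM over the 77 cells of clusters 0 and 2 (0 to 4141) and 0 CPM over the 36 cells of cluster 1 (0 to 1322). Of the cells, 1 of 30, 3 of 77 and 22 of 36 had none of the 8 genes. The ranges overlapped between all groups. With cells thinned to 2000 identifiers, at least 1 of the 8 genes was seen in 90.0% of cells of cluster 3, 83.8% of clusters 0 and 2 and 29.0% of cluster 1.

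**Figure D4:**
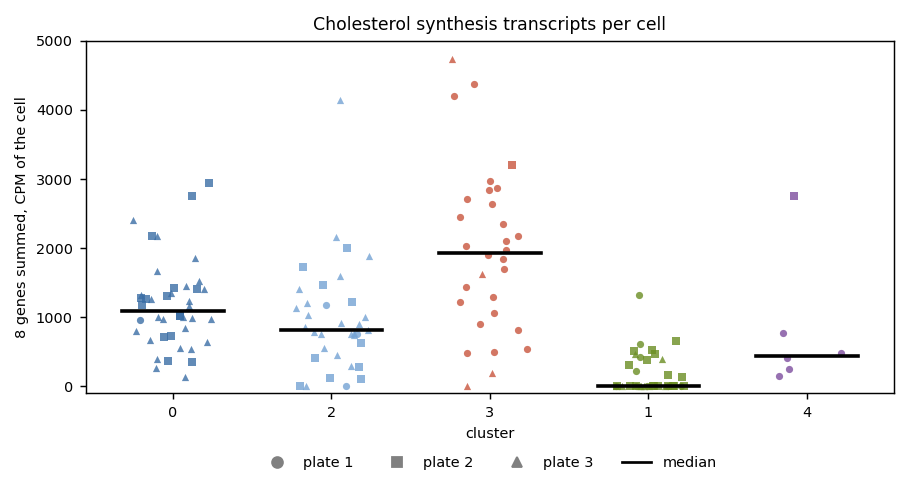
Summed CPM of the 8 genes in each cell by cluster; symbols mark the plate, black lines the median, and the horizontal scatter has no meaning. Medians were 1092 CPM in cluster 0, 814 in cluster 2, 1935 in cluster 3, 0 in cluster 1 and 445 in cluster 4.

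The oligodendrocyte-like clusters were also compared with each other. Summed over the 8 genes, cluster 0 had 1319.8 ± 193 CPM (SD, n = 2 plates) and cluster 2 had 1021 ± 55.2 CPM (SD, n = 3 plates). Idi1 differed the most of the 7 genes that passed the filter here. It stood at 209.6 and 161 CPM in cluster 0 on plates 2 and 3, and at 82.2, 88.1 and 50.9 CPM in cluster 2 on plates 1, 2 and 3, with no overlap. Its log2 difference was 1.41 (SE 0.70, edgeR adjusted p = 1). None of the 7 passed in edgeR (1 at an unadjusted p under 0.05) or in DESeq2, where 0.131% of all 5329 genes tested were called higher in cluster 0 and 0.0375% lower, 0.169% in all. The median over the 7 was 0.28 against 0.08 over all genes, and Msmo1, at 0.02, had both signs among the alternatives.

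Autofluorescence of each cell, the measure the study set beside the transcripts, was used to split clusters 0 and 2 on each plate at the median of those cells. The brighter cells had 1060 CPM of the 8 genes against 549.7 CPM on plate 1 (2 and 2 cells), 1455 against 970.3 CPM on plate 2 (12 and 13 cells) and 1254 against 938 CPM on plate 3 (24 and 24 cells). The ratio was 1.93, 1.50 and 1.34, above 1 on 3 of 3 plates. All 6 genes tested had log2 differences above 0, from 0.21 for Sqle to 1.06 for Idi1 (SE 0.53), and 0 passed in edgeR (1 at an unadjusted p under 0.05) or in DESeq2. Called genes made up 0% of all 2435 tested (49 at an unadjusted p under 0.05), and the median was 0.47 over the 6 against 0.05 over all. Brighter cells were also deeper: their median transcripts were 18869, 13678 and 9779 against 3638, 9911 and 7029 in dimmer cells. They held 1, 9 and 15 cells of cluster 0 against 0, 6 and 11. The 10 oligodendrocyte markers had log2 differences above 0 in 10 of 10, with a median of 0.51, and the 4 of 8 astrocyte or quiescent stem cell markers that were tested were below 0 in 4 of 4, with a median of -0.61, and none of these passed in edgeR (2 and 0 at an unadjusted p under 0.05). The part of depth, cluster and markers in the ratios was not tested. Over the 77 cells the summed CPM had a Spearman rho of 0.393 with autofluorescence (Pearson r 0.264), 0.417 with total transcripts (0.221) and 0.418 with the CPM of 10 oligodendrocyte markers (0.368), given as a description, since these share the library and the total. By plate, rho on plates 2 and 3 was 0.402 and 0.386 with autofluorescence, 0.530 and 0.364 with total transcripts and 0.660 and 0.241 with the markers.

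The rest of the pathway was followed in 14 further enzymes, of which 4 passed the filter. Sc5d, a late sterol desaturase and the most abundant of them, was higher in clusters 0 and 2 than in cluster 1 (log2 4.24, SE 1.27, edgeR adjusted p = 0.0044), at 133, 110.03 and 137 CPM on plates 1, 2 and 3 against 0, 13.6 and 0 CPM, a pooled ratio of 15.97 (2.80 to 637) on 1 transcript in cluster 1. It alone of the 4 passed the threshold against cluster 1, and the call was not made without plate 2, without plate 3 or with sums of at least 1 cell. Against cluster 3, 0 of the 4 of this list passed in edgeR (1 at an unadjusted p under 0.05). The medians over the 4 were 1.67 against cluster 1 and -0.12 against cluster 3.

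Along 20 genes in the order of the pathway, pooled levels were lower in cluster 1 than in clusters 0 and 2 for 17 and lower than in cluster 3 for 17, and higher in cluster 3 than in clusters 0 and 2 for 13. For the 8 genes followed here the first counts were 8 and 8. The 12 other genes summed to 572 CPM in clusters 0 and 2, 808 CPM in cluster 3 and 283 CPM in cluster 1, so cluster 1 had 49.5% of the oligodendrocyte level of those 12 against 14.7% of that of the 8. Mvd, Hsd17b7, Lss and Pmvk, all counted as lower in cluster 1 than in clusters 0 and 2, had only 0 to 3 transcripts there. Pooled directions were not counted over all genes. By fitted log2 difference, 2180 of all 4080 genes tested were higher in clusters 0 and 2 than in cluster 1. Against cluster 3, 1921 were lower. By stage, clusters 0 and 2 were at 423 CPM and cluster 3 at 375 CPM in the 5 genes summed for the mevalonate steps, and clusters 0 and 2 were the higher in the isoprenoid steps, at 209 against 146 CPM. Cluster 3 was the higher in the squalene steps, at 484 against 231 CPM, and in the sterol steps, at 1905 against 889 CPM, the latter with Msmo1 in it. These stage sums are descriptions with no test. They pool plates that held the groups unevenly, and some genes changed order between plates. On plate 1 Hmgcs1 was at 156 CPM in clusters 0 and 2 and 184 CPM in cluster 3. On plate 3 it was at 329 and 135 CPM. Fdps was at 44.4 and 22.9 CPM on plate 1 and at 78.7 and 135 CPM on plate 3. Fdft1 was at 66.7 and 283 CPM on plate 1 and at 136.5 and 44.8 CPM on plate 3. Cyp51 was at 88.9 and 138 CPM on plate 1 and at 106 and 89.7 CPM on plate 3. Idi1, Sqle and Msmo1 kept their order on plates 1 and 3, as did Lss on few transcripts. For Idi1 and Sqle the lone cluster 3 cell of plate 2 went the other way.

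**Figure D5:**
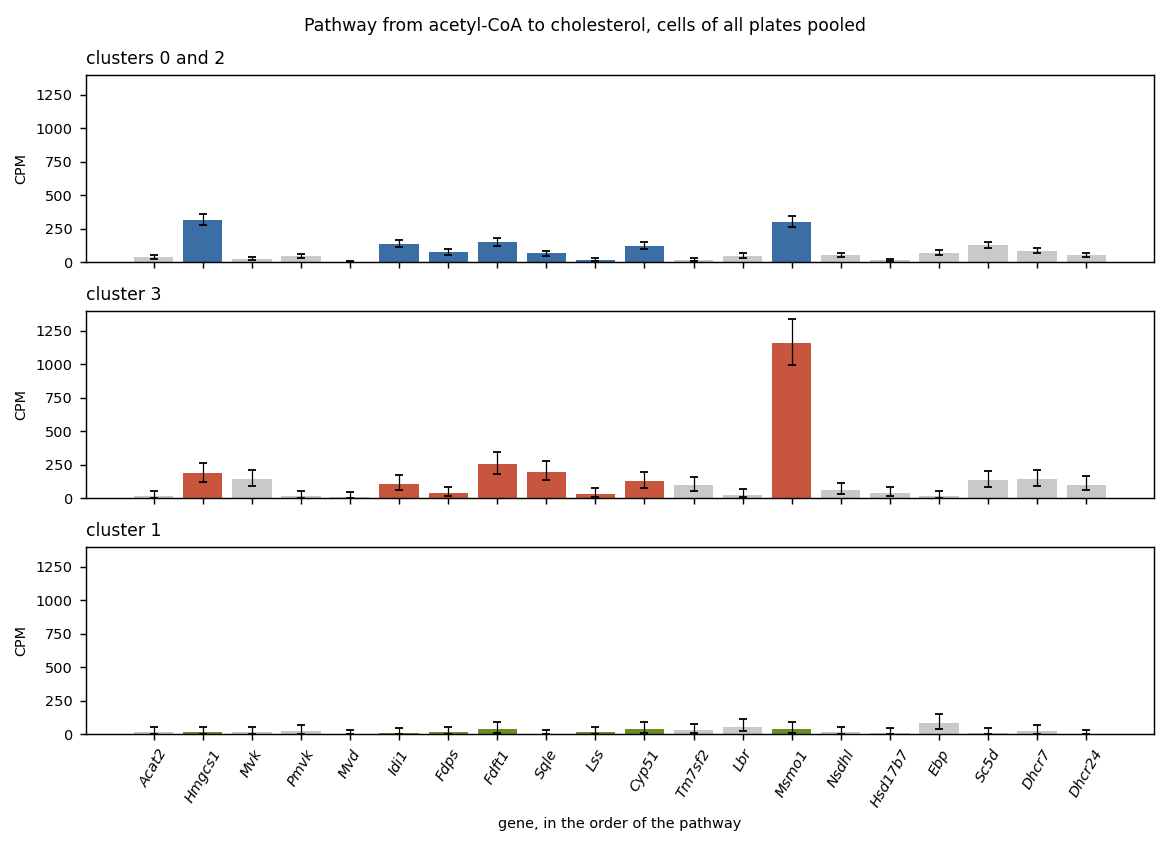
Pooled level (CPM) of 20 genes from acetyl-CoA to cholesterol in clusters 0 and 2, 3 and 1, in the order of the pathway; coloured bars are the 8 genes followed here, grey bars the other 12, and error bars are exact 95% Poisson intervals. Msmo1 stands out in cluster 3 at 1159.9 CPM. The bars of cluster 1 are lower than in clusters 0 and 2 for 17 of 20 genes, some of them on 0 to 3 transcripts in cluster 1.

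Of 11 genes that govern SREBP, 4 passed the filter. Srebf1, the gene of the SREBP that drives fatty acid genes and the most abundant of the list, stood at 178, 159 and 132 CPM in clusters 0 and 2 and at 344 and 538 CPM in cluster 3, with a log2 difference of -1.49 (SE 0.68, edgeR adjusted p = 0.126). Against cluster 3, 0 of the 4 passed in edgeR (1 at an unadjusted p under 0.05), with a median of -0.25. Against cluster 1, 1 of 4 did: Mylip, which encodes the ligase that marks the LDL receptor for breakdown, was lower in clusters 0 and 2 (log2 -5.94, SE 0.77, edgeR adjusted p = 6.0e-13), at 22.2, 3.06 and 6.94 CPM against 606, 719.95 and 587 CPM. The median over the 4 was 0.16, and 13.8% of all genes were called lower in that comparison.

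Of 19 genes of cholesterol uptake, transport and turnover, 10 passed the filter. Against cluster 3, 5 were lower in clusters 0 and 2: Apoe, the lipoprotein of brain cholesterol (log2 -2.83), Abca1, which loads lipid onto it (-2.61), Lrp1, its receptor (-4.92), Lcat, which esterifies its cholesterol (-3.26), and Cyp46a1, which hydroxylates cholesterol for export. Cyp46a1 had 1 transcript in clusters 0 and 2, and its pooled level was 97.3 times as high in cluster 3 (15.5 to 4042). The 3 higher were Abca2, a lipid transporter of endosomes (3.78), Npc1, the lysosomal cholesterol exporter (2.60), and Abcg1, a sterol exporter. Abcg1 was at 0 in cluster 3, so it was at least 10.3-fold higher in clusters 0 and 2 (edgeR adjusted p = 0.00042). The median over the 10 was -0.57, and of all genes 7.87% were called lower and 9.02% higher. Without plate 1, 3 of these 8 calls remained, without Abca1, Abcg1, Cyp46a1, Lcat and Npc1; without plate 2, 7 remained, and without plate 3, 5 remained. Cyp46a1 lost its call in DESeq2 and with sums of at least 1 cell too, and with no filter on low counts so did Cyp46a1, Lcat and Npc1. Against cluster 1, Vldlr, a lipoprotein receptor (pooled ratio 22.6, 3.99 to 899, on 1 transcript in cluster 1), and Abca2 (4.03) were higher and Apoe (-0.94), Abca1 (-2.24) and Lrp1 (-5.47) lower, with a median of 0.41, or 0.13 with Cyp46a1, which was at 0 in cluster 1, set at its bound. Of all genes 16.8% were called higher there and 13.8% lower. Apoe and Vldlr lost their calls without plate 2, without plate 3 and with sums of at least 1 cell, and Apoe and Abca1 with no filter on low counts. Apoe, the most abundant, stood at 1855, 529 and 940.5 CPM in clusters 0 and 2, at 10804 and 10987 CPM in cluster 3 and at 3004, 1292 and 3702 CPM in cluster 1, so its plates overlapped between clusters 0 and 2 and cluster 1.

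Fatty acid and myelin lipid genes were tested for 13 of 17. Against cluster 3, 6 were higher in clusters 0 and 2 and 2 lower, with a median of 1.59, where 9.02% of all genes were called higher and 7.87% lower. The higher ones were the desaturase gene Scd2 (1.59), the elongase genes Elovl1 (3.79) and Elovl7, the ceramide synthase gene Cers2 (3.45), and Fa2h and Ugt8a, which hydroxylate and galactosylate the sphingolipids of myelin. The pooled ratio of Ugt8a was 160.3 (44.3 to 1324) on 2 transcripts in cluster 3. Elovl7 and Fa2h were at 0 in cluster 3 and so at least 20.4-fold and at least 70.6-fold higher. The lower ones were Elovl5 (-1.67) and the desaturase gene Fads1 (-2.21). Both lost their calls without plate 1 (6 of 8 calls remained) and, with Elovl1 and Scd2, without plate 3 (4 of 8 remained). Elovl5 lost its call without the plate block and with sums of at least 1 cell too, and with no filter on low counts Elovl5, Fads1 and Scd2 did. Against cluster 1, where 16.8% of all genes were called higher, 9 of 13 were higher and 0 lower: Scd2 (4.80), Elovl5, Fasn, the fatty acid synthase, Cers2 (3.15), Elovl6, Fa2h (5.10), Elovl7 (3.71), Ugt8a (5.04) and Scd1, which was at 0 in cluster 1 and so at least 5.90-fold higher. Elovl5, Fasn and Elovl6 rest on 3, 3 and 1 transcripts in cluster 1, with pooled ratios of 12.1 (4.08 to 58.9), 8.27 (2.78 to 40.5) and 31.3 (5.55 to 1242). Without plate 2, and with sums of at least 1 cell, the calls of Fasn and Scd1 were lost, and without plate 3 that of Scd1. The median over the 13 was 3.71, or 3.52 with Scd1 at its bound. Scd2, the most abundant, stood at 7221, 6611 and 6984 CPM in clusters 0 and 2, at 2245 and 2876 CPM in cluster 3 and at 101, 421 and 461 CPM in cluster 1, with no overlap.

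Among themselves the 7 genes that passed the filter over single clusters varied together to unequal degrees. Over the 11 sums of plate and cluster, Pearson r of log2 CPM ran from 0.311 for Fdps and Fdft1 to 0.906 for Fdft1 and Cyp51, a description in which sums of 1 plate share a library. Of 5322 other genes, those most like the mean of the 7 were Hepacam, an adhesion gene of glia (r = 0.957), Usp54 (0.954), Aldh6a1, an enzyme of valine breakdown (0.954), Tmem62 (0.953) and Pmm1, a phosphomannomutase (0.951). Hepacam stood at 183 CPM in clusters 0 and 2, 490.2 CPM in cluster 3 and 0 CPM in cluster 1, and Aldh6a1 at 174, 318 and 15.7 CPM.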

How the data were processed

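The authors deposited estimated counts of transcripts per gene and cell, for which they had corrected molecular identifiers for chance collisions: undoing the correction gave whole numbers for 100% of 349688 values above 0 (tolerance 1e-06). Autofluorescence intensity per cell, the count of genes per cell and cluster numbers were deposited by the authors too. Named without roles in the submitters' processing notes are Seurat 4.1.1, R 4.2.0, BWA 0.7.15, and as builds mm10 and hg19. Of the columns per cell, 13 were not used here. Library names were matched to plates by their final digit, which no label states.

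Transcripts were summed per plate and group, rounded, and kept for sums of at least 3 cells (2 for autofluorescence). edgeR 4.0.16 in R 4.3.3 tested these sums by its quasi-likelihood F test after TMM scaling and low-count filtering, with a block for plate (sums of a plate share its library) and Benjamini-Hochberg adjustment over all genes at 0.05, checked on simulated data. P-values rest on counting error and on a spread between plates that edgeR estimates with information shared across genes. The number of mice behind that spread is not settled. Levels are CPM of each sum with exact 95% Poisson intervals; plates total 297573 to 478504 transcripts. No doublet caller was run. Alternatives were RLE size factors, DESeq2 1.42.0, no filter, no block, leaving out each plate, recovered identifiers, and sums of at least 1 cell.

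The 8 genes, the gene lists and the tests were chosen with earlier results of these data known. Msmo1 and Erg28 were found under older symbols through RefSeq. Named were the 8 genes, the members of each list past the threshold against clusters 3 or 1 or with the most transcripts, and the 5 genes most like the mean of the 7 of them that passed the filter over single clusters. Clusters were named from marker lists. Gene positions are GENCODE M21 on GRCm38. One gene of the pathway lists is not reported here and was left out of the counts and sums over them.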

Additional observations from a re-analysis of the deposited data

How the results depend on the processing

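Counts of called genes moved more than the direction of the members. In clusters 0 and 2 against cluster 3, 689 genes were called, 437 with no filter on low counts, 1114 with no replicate block and 319 to 550 with 1 plate left out; 1 member was called, 0 with no filter and 0 to 1 with 1 plate left out. Against cluster 1, 1246 genes were called, 669 with sums of at least 1 cell and 607 to 1103 with 1 plate left out; 5 members were called, 3 with sums of at least 1 cell and 2 to 5 with 1 plate left out. Against cluster 4, 544 genes were called, 312 in DESeq2, 172 with no filter and 1255 with no replicate block; 0 members were called, 1 with RLE size factors, 1 in DESeq2, 2 with no replicate block and 0 to 1 with 1 plate left out. Leaving out plate 1 gives no value there, since it holds the sum of cluster 4. Between clusters 0 and 2, 9 genes were called, 1 in DESeq2, 14 with no replicate block, 3 with sums of at least 1 cell and 1 to 26 with 1 plate left out. By autofluorescence, 0 genes were called and 0 to 2 with 1 plate left out; sums of at least 1 cell were not run there. The summed level was also averaged over the cells of each plate with at least 3 cells of a group, and then over plates. This gave 980.5 CPM in clusters 0 and 2 and 1809.6 CPM in cluster 3. The mean over all cells at once was 1087 CPM in clusters 0 and 2 (77 cells) and 1973 CPM in cluster 3 (30 cells).

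Signs turned against cluster 3 with 1 plate left out for Hmgcs1 (-0.78 without plate 3 to 1.75 without plate 1), Fdft1 (-2.34 without plate 3 to 2.00 without plate 1) and Cyp51 (-1.03 without plate 3 to 0.65 without plate 1), and for Cyp51 with no replicate block (0.27). Between clusters 0 and 2 they turned with 1 plate left out for Fdft1 (-0.43 without plate 2 to 0.29 without plate 3) and Msmo1 (-0.21 without plate 2 to 0.32 without plate 3, and -0.02 without plate 1), and for Msmo1 with RLE size factors (-0.068), in DESeq2 (-0.069) and with sums of at least 1 cell (-0.21). The cause was not tested. Few transcripts limit Fdps and Lss, and cluster 1 has 22 transcripts of the 8 genes in all.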
